A study of Gossypium arboreum with 12 samples.

Results

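The transcripts described here are matched to kinases of mitogen-activated protein (MAP) kinase cascades and to a further protein kinase, in cotton ovules. They were taken from the study's list of transcripts that differed between the lines at 10 days post anthesis (dpa), by the closest *Arabidopsis* homolog. The homologs are MAP kinase kinase kinase 13 (AT1G07150.2), MAP kinase kinase 9 (AT1G73500.1), MAP kinase 3 (AT3G45640.1) and a protein kinase superfamily protein (AT5G55560.1). This gave 5 probe sets for 4 genes, 2 of them for MAP kinase 3, among 21791 transcript probe sets in the deposited table. Each probe set sums the brightness of several short probes for one transcript. The members were chosen by the difference between the lines at 10 dpa, which put a transcript on that list, so that difference is given as a description with no test. The names rest on a match in another species, and the match of MAP kinase kinase kinase 13 is weaker than those of MAP kinase 3 and MAP kinase kinase 9. Another of the study's lists, of transcription factors, gives a protein kinase family protein (AT4G12020.2) as the homolog for some of these probe sets. They are Ghi.6088.1.S1_s_at of MAP kinase 3, MAP kinase kinase 9 and the protein kinase of AT5G55560.1. That list came from a search of transcription factors only, and its matches are weaker than those behind the names used here.

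Ovules of diploid cotton, *Gossypium arboreum*, came from the fuzzy-lintless mutant line (*Fl*, ANOI 1960), whose seeds carry fuzz but no long lint fibres, and from the wild-type fuzzy-linted line (*FL*), which bears fibre. Both were grown in the field and sampled at 10 dpa, when fibres elongate, and at 0 dpa, when fibre cells initiate, with 3 arrays for each line and stage from separate biological replicates and 12 arrays in all. The lines are near-isogenic through crossing, so a difference between them and a difference in the remaining genetic background cannot be told apart. One *FL* array, replicate 1 of 10 dpa, carries 0 dpa as its stage in GEO's record although its title and source both give 10 dpa, and it was placed with the 10 dpa arrays.

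A MAP kinase cascade passes a signal along by phosphorylation, from a MAP kinase kinase kinase to a MAP kinase kinase and from there to a MAP kinase, which phosphorylates transcription factors and enzymes. In *Arabidopsis*, MAP kinase 3 acts in defence, stress and developmental signalling, and MAP kinase kinase 9 is an activator of it that raises ethylene synthesis. Ethylene promotes the elongation of cotton fibres in ovule culture. The arrays measured transcript levels and not kinase activity. Whether the kinases described here act in the same cascade in cotton was not tested.

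Levels are log2 values relative to the median of each probe set over the 12 arrays, which is 0 in the deposited table, so a level shows where a transcript is high or low among the arrays but not how abundant it is. Levels of different genes cannot be set against each other for the same reason. The identifiers of 5 of the 5 members end in _s_at, which marks probes that may cross-hybridize with related transcripts. The array medians lay between -0.0513 and 0.0244, and the SD over all probe sets was 0.489 to 0.501 on the *FL* arrays of 10 dpa against 0.347 to 0.364 on the other arrays. The 27 probe sets for bacterial hybridization controls, which are spiked into every hybridization, differed between *Fl* and *FL* arrays by -0.653 on the log2 scale at 0 dpa and by -0.153 at 10 dpa.

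At 10 dpa every member was lower in *Fl* than in *FL*, with 3.69-fold to 9.15-fold differences, and at 0 dpa 0 of the 5 passed the test between the lines, where 10.2% of all transcripts did. Centring the arrays on the hybridization controls instead gave 4 of the 5 a call at 0 dpa, in a setting that called 19323 of the 21791 transcripts. In *FL* the 5 members were higher at 10 dpa than at 0 dpa. In *Fl* the MAP kinase 3 probe sets and the protein kinase were also higher at 10 dpa, by less than in *FL*, whereas MAP kinase kinase 9 and MAP kinase kinase kinase 13 were lower at 10 dpa than at 0 dpa. RNA came from whole ovules, so a smaller share of fibre cells and less transcript per cell cannot be told apart.

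MAP kinase kinase kinase 13, by name of the top tier of such cascades, is probe set Ghi.6632.1.A1_s_at. Its relative levels at 10 dpa were -1.14, -0.80 and -1.60 in *Fl*, against 1.73, 1.84 and 1.82 in *FL*. At 0 dpa they were 0.24, 0.42 and 0.04 in *Fl*, against -0.04, -0.49 and -0.44 in *FL*. The 3 *Fl* arrays lay below the 3 *FL* arrays at 10 dpa and above them at 0 dpa, and no group overlapped its neighbour in the order of the 4 group means, which ran from *FL* at 10 dpa down through *Fl* at 0 dpa and *FL* at 0 dpa to *Fl* at 10 dpa. The means were -1.18 ± 0.405 in *Fl* and 1.80 ± 0.0572 in *FL* at 10 dpa (SD, n = 3 each), a log2 difference of -2.97 (standard error 0.18), which is 7.86-fold lower. At 0 dpa they were 0.23 ± 0.188 in *Fl* and -0.32 ± 0.246 in *FL* (SD, n = 3 each). The 0 dpa log2 difference of 0.56 had a 95% interval of 0.16 to 0.95, or 1.47-fold with an interval of 1.12 to 1.93, and an adjusted p of 0.049 (Benjamini-Hochberg in limma), which misses the threshold of 0.01.

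MAP kinase kinase 9, by name of the middle tier, is probe set Ghi.5022.4.A1_s_at. At 10 dpa its relative levels were -1.42, -0.68 and -0.89 in *Fl*, against 1.70, 1.33 and 1.51 in *FL*. At 0 dpa they were -0.02, -0.31 and 0.02 in *Fl*, against 0.31, -0.26 and 0.38 in *FL*. The lines were apart at 10 dpa, where *Fl* held the lowest 3 arrays of the 12, and overlapped at 0 dpa. The 10 dpa means were -1.0 ± 0.38 in *Fl* and 1.51 ± 0.183 in *FL* (SD, n = 3 each), a log2 difference of -2.51 (standard error 0.201), or 5.68-fold lower. At 0 dpa the means were -0.10 ± 0.181 in *Fl* and 0.14 ± 0.351 in *FL* (SD, n = 3 each), and their log2 difference of -0.24 had a 95% interval from -0.68 to 0.20 (adjusted p = 0.46, Benjamini-Hochberg in limma).

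MAP kinase 3, by name of the last tier, was read by 2 probe sets of one cluster number. On Ghi.6088.1.S1_s_at the relative levels at 10 dpa were 0.23, 0.37 and 0.18 in *Fl*, against 3.07, 3.45 and 3.20 in *FL*. At 0 dpa they were -0.35, -0.67 and -0.18 in *Fl*, against -0.64, -0.18 and -0.27 in *FL*. The 3 *FL* arrays of 10 dpa stood far above the other 9, the *Fl* arrays of 10 dpa came next without overlap, and the lines overlapped at 0 dpa. The means at 10 dpa were 0.26 ± 0.0993 in *Fl* and 3.24 ± 0.191 in *FL* (SD, n = 3 each), a log2 difference of -2.98 (standard error 0.148), or 7.9-fold lower. The 0 dpa means were -0.40 ± 0.251 in *Fl* and -0.36 ± 0.246 in *FL* (SD, n = 3 each), with a log2 difference of -0.04, a 95% interval from -0.36 to 0.29 and an adjusted p of 0.9 (Benjamini-Hochberg in limma).

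The second MAP kinase 3 probe set, Ghi.6088.2.A1_s_at, gave the same order of groups. Its relative levels at 10 dpa were 0.31, 0.75 and 0.70 in *Fl*, against 3.70, 3.80 and 3.83 in *FL*. At 0 dpa they were -0.39, -0.60 and -0.68 in *Fl*, against -0.80, -0.31 and -0.38 in *FL*. Here too the lines overlapped at 0 dpa and were apart at 10 dpa. The 10 dpa means of 0.59 ± 0.24 in *Fl* and 3.78 ± 0.0681 in *FL* (SD, n = 3 each) gave a log2 difference of -3.19 (standard error 0.142), or 9.15-fold lower. At 0 dpa the means were -0.56 ± 0.153 in *Fl* and -0.50 ± 0.264 in *FL* (SD, n = 3 each), with a log2 difference of -0.06, a 95% interval from -0.37 to 0.25 and an adjusted p of 0.82 (Benjamini-Hochberg in limma). Taken array by array, the relative level of the second probe set minus that of the first was 0.33 ± 0.227 in *Fl* and 0.54 ± 0.159 in *FL* at 10 dpa. At 0 dpa this value was -0.16 ± 0.306 in *Fl* and -0.13 ± 0.0201 in *FL* (SD, n = 3 each, log2). Only its change between groups can be read, because each probe set is centred on its own median. Both probe sets are matched to the same homolog and are not independent measurements of 2 genes.

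The protein kinase superfamily member (AT5G55560.1) is probe set Ghi.6548.1.S1_s_at. At 10 dpa its relative levels were 1.22, 1.32 and 1.33 in *Fl*, against 3.14, 3.30 and 3.09 in *FL*. At 0 dpa they were -1.57, -1.53 and -1.60 in *Fl*, against -1.27, -1.22 and -1.92 in *FL*. The 10 dpa arrays of both lines lay above all 0 dpa arrays, and within 10 dpa the *Fl* arrays lay below those of *FL*. The 10 dpa means were 1.29 ± 0.0607 in *Fl* and 3.18 ± 0.109 in *FL* (SD, n = 3 each), a log2 difference of -1.88 (standard error 0.147), or 3.69-fold lower. The 0 dpa means were -1.56 ± 0.0383 in *Fl* and -1.47 ± 0.39 in *FL* (SD, n = 3 each), with a log2 difference of -0.09, a 95% interval from -0.42 to 0.23 and an adjusted p of 0.72 (Benjamini-Hochberg in limma). The wide SD of *FL* at 0 dpa came from replicate 3, the lowest of the 12 arrays.

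**Figure D1:**
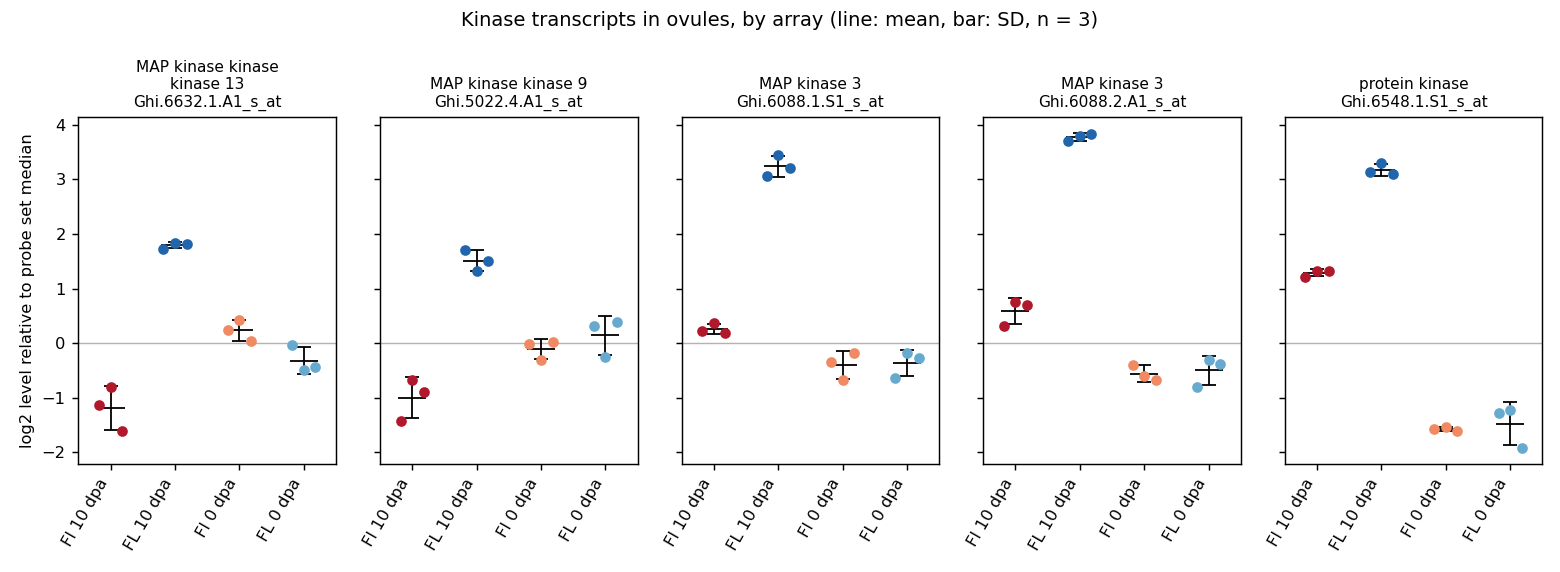
Relative level (log2, median of each probe set over the 12 arrays at 0) of the 5 probe sets on each array. Points are arrays, the long line is the group mean and the bar its SD (n = 3). The *FL* arrays of 10 dpa stand highest in every panel, *Fl* at 10 dpa stands lowest for MAP kinase kinase 9 and MAP kinase kinase kinase 13, and for the other 3 probe sets *Fl* at 10 dpa lies between *FL* at 10 dpa and the 0 dpa arrays.

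Between the lines at 10 dpa, 5 of the 5 members were at least 3-fold lower in *Fl*, where 1.04% of all 21791 transcripts were called lower with an adjusted p of 0.01 or less and a fold of 3. The arrays of the lines did not overlap for 5 of the 5, against 19.2% of all transcripts that were lower in *Fl* without overlap. The rule used this contrast, so nothing is read from these counts. The median log2 difference was -2.97 over the members and 0.04 over all transcripts. The member nearest the threshold of 3-fold was the protein kinase at 3.69-fold lower. Among the other probe sets of the members' clusters, the nearest from outside was Ghi.6088.2.S1_at, 2.6-fold lower in *Fl*. Quantile normalization was also repeated on the centred values, which gives every array the same spread, the wider-spread *FL* arrays of 10 dpa included. The protein kinase was then 1.5-fold lower, the MAP kinase 3 probe sets 3.3-fold and 3.4-fold lower, MAP kinase kinase 9 4.32-fold lower and MAP kinase kinase kinase 13 5.5-fold lower. Thus 4 of the 5 members differed by at least 3-fold and the order of the folds changed.

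Between the lines at 0 dpa, 0 of the 5 members were called at an adjusted p of 0.01 or less (Benjamini-Hochberg in limma), where 10.2% of all transcripts were called in either direction. The unpaired test of the methods also called 0. At an unadjusted p under 0.05 there was 1 of 5, MAP kinase kinase kinase 13, against 31.6% of all transcripts. It was also the 1 member whose lines did not overlap, with *Fl* higher, against 16% of all transcripts that were higher in *Fl* without overlap. The median log2 difference was -0.06 over the members and -0.02 over all transcripts. Centring each array on the bacterial hybridization controls moved the median of all transcripts to 0.64 at 0 dpa and gave every member a value above 0, with the MAP kinase 3 probe sets, MAP kinase kinase 9 and the protein kinase below that median and MAP kinase kinase kinase 13 above it at 1.21. With the arrays as deposited, the 95% intervals of the 5 members lay between -0.68 and 0.95, inside the range of a 3-fold difference (1.58 on the log2 scale) in either direction.

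**Figure D2:**
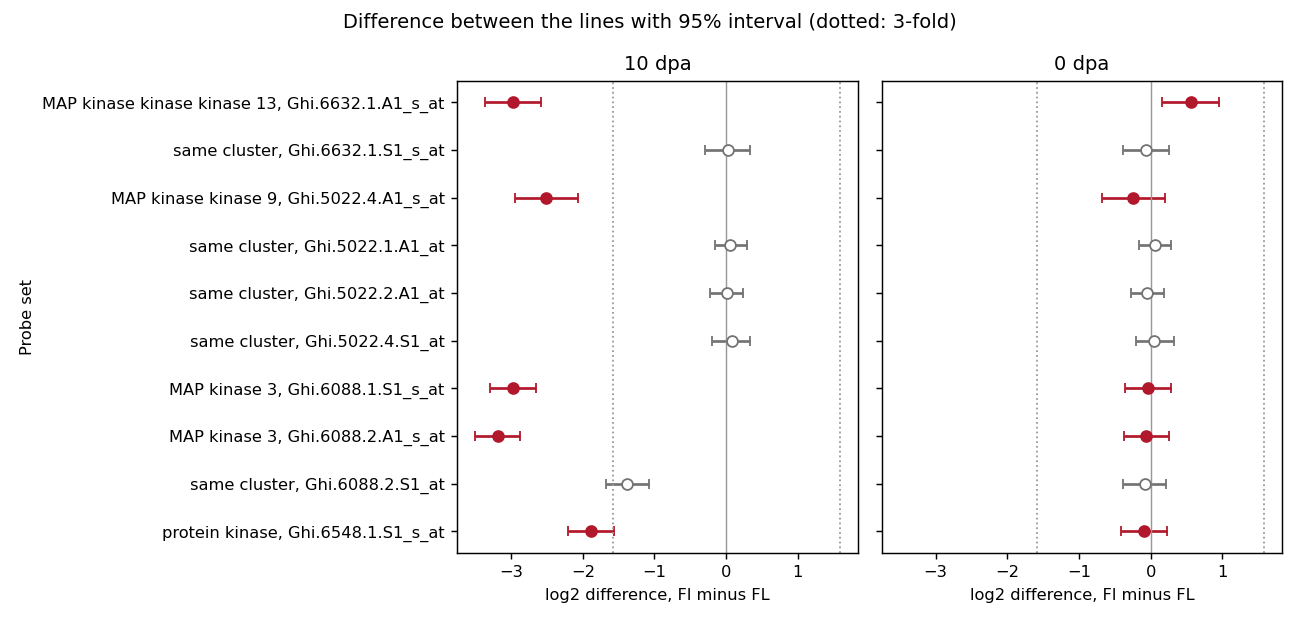
Log2 difference of *Fl* minus *FL* at 10 dpa (left) and 0 dpa (right) for the 5 members (filled) and 5 other probe sets with the same cluster numbers in their identifiers (open), with 95% intervals from limma and dotted lines at 3-fold. The members lie between -3.19 and -1.88 at 10 dpa, the contrast that chose them, and between -0.24 and 0.56 at 0 dpa.

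Within *Fl*, from initiation to elongation, the members parted. The protein kinase was 7.25-fold higher at 10 dpa than at 0 dpa, MAP kinase 3 was 2.21-fold and 1.58-fold higher on its probe sets, MAP kinase kinase 9 was 1.86-fold lower and MAP kinase kinase kinase 13 was 2.66-fold lower. Thus 3 members were higher without overlap between stages (23.8% of all transcripts) and 2 were lower without overlap (29.2%), and 1 was at least 3-fold higher (1.83%). Within *FL*, 5 of the 5 were higher at 10 dpa without overlap (22.9% of all transcripts), and 4 were at least 3-fold higher (2.94%). The folds were 25 for the protein kinase, 19.4 and 12.2 for MAP kinase 3, 4.35 for MAP kinase kinase kinase 13 and 2.59 for MAP kinase kinase 9. Repeated quantile normalization lowered these to 10.2 for the protein kinase, 7.58 and 5.23 for MAP kinase 3, 2.73 for MAP kinase kinase kinase 13 and 1.79 for MAP kinase kinase 9, with 3 members at least 3-fold higher, and centring on the hybridization controls gave 5. The median log2 stage difference over the members was 0.66 in *Fl* and 3.60 in *FL*, against -0.01 in *Fl* and -0.07 in *FL* over all transcripts. These stage differences use the 10 dpa arrays that chose the members and were not tested.

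Set side by side, the stage difference in *Fl* as a share of that in *FL* was 61.5% for the protein kinase, 26.7% and 18.3% for the MAP kinase 3 probe sets, -65.1% for MAP kinase kinase 9 and -66.5% for MAP kinase kinase kinase 13 on the log2 scale. The last 2 thus had a stage difference of opposite sign in the lines. MAP kinase kinase kinase 13 was one of 45 transcripts, 0.207% of the 21791, that were at least 3-fold higher at 10 dpa in *FL* and lower at 10 dpa without overlap in *Fl*, a class it left under repeated quantile normalization, where its stage fold in *FL* was 2.73. The line-by-stage term, the stage difference in *Fl* minus that in *FL*, was -3.53 (standard error 0.255) for MAP kinase kinase kinase 13, -3.13 (0.201) and -2.95 (0.209) for MAP kinase 3, -2.26 (0.285) for MAP kinase kinase 9 and -1.79 (0.208) for the protein kinase, all on the log2 scale. After repeated quantile normalization it was -3.05 for MAP kinase kinase kinase 13, -1.70 and -1.68 for MAP kinase 3, -1.86 for MAP kinase kinase 9 and -0.59 for the protein kinase. It contains the contrast that chose the members and is given as a description.

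**Figure D3:**
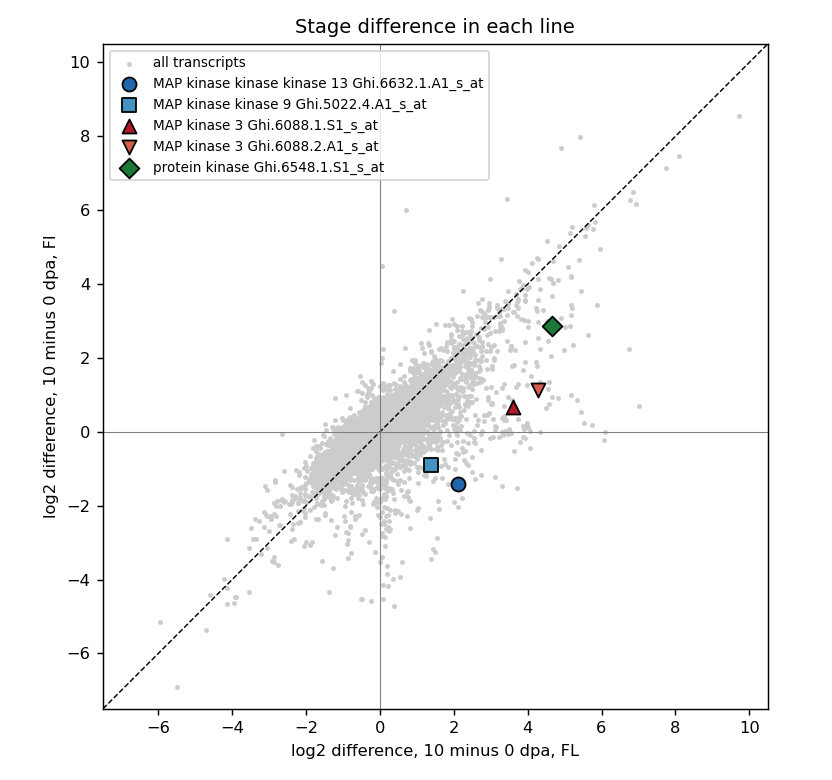
Log2 stage difference (10 minus 0 dpa) in *Fl* (vertical axis) against that in *FL* (horizontal axis) for all 21791 transcripts (grey) and the 5 members (symbols), with the line of equal differences dashed. The 5 members lie below the dashed line, with MAP kinase kinase 9 and MAP kinase kinase kinase 13 also below 0 on the vertical axis.

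The markers of elongating fibre used here were, like the members, mostly lower in *Fl* than in *FL* at 10 dpa. The marker list held 5 probe sets for expansin-like B1, expansin A1, beta-6 tubulin and profilin 5, proteins of wall loosening and the cytoskeleton, all of which the study listed from these arrays. Other wall genes that the study links to elongation are not on it. The study listed a fasciclin-like arabinogalactan protein and some xyloglucan endotransglucosylases as higher in *Fl* at 10 dpa, and other xyloglucan endotransglucosylases as lower. At 10 dpa the mean relative level of the 5 markers by array was -0.02 to 0.12 in *Fl* and 3.38 to 3.58 in *FL*. At 0 dpa this mean was -0.07 to 0.01 in *Fl* and -0.52 to -0.39 in *FL*. Without expansin A1, which was 4.01-fold higher in *Fl* at 0 dpa (adjusted p = 1.5e-07, Benjamini-Hochberg in limma), the mean of the other 4 ranged from -0.22 to -0.09 in *Fl* and from -0.21 to -0.13 in *FL* at 0 dpa. At 10 dpa 4 of the 5 were at least 3-fold lower in *Fl*, and the fifth, expansin A1, had a log2 difference of 0.36. In *FL* 4 of the 5 were at least 3-fold higher at 10 dpa than at 0 dpa, and in *Fl* 0 were. The part of the share of fibre cells in the members' differences was not tested.

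The array carries further probe sets whose identifiers share a cluster number with a member. There were 5 of these, 1 with MAP kinase 3, 3 with MAP kinase kinase 9, 1 with MAP kinase kinase kinase 13 and 0 with the protein kinase. The study's list assigns the MAP kinase kinase 9 and MAP kinase kinase kinase 13 members to clusters with numbers other than those in their identifiers. For MAP kinase 3 the numbers are the same. Ghi.6088.2.S1_at, of the MAP kinase 3 cluster, followed its members at a smaller size, with -0.03 ± 0.118 in *Fl* and 1.35 ± 0.152 in *FL* at 10 dpa (SD, n = 3 each), a log2 difference of -1.38 (standard error 0.137). Its arrays of 10 dpa ran from -0.16 to 0.07 in *Fl* and from 1.25 to 1.52 in *FL*, without overlap. At 0 dpa its means were -0.19 ± 0.233 in *Fl* and -0.11 ± 0.226 in *FL*, and the log2 difference of -0.08 had an adjusted p of 0.75 (Benjamini-Hochberg in limma).

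The other 4 did not follow their members. Those sharing a number with MAP kinase kinase 9, Ghi.5022.1.A1_at, Ghi.5022.2.A1_at and Ghi.5022.4.S1_at, had 10 dpa log2 differences of 0.06, 0.01 and 0.08, beside -2.51 for the member. The probe set sharing a number with MAP kinase kinase kinase 13, Ghi.6632.1.S1_s_at, had a 10 dpa log2 difference of 0.02, beside -2.97 for the member. None of the 5 was called at 0 dpa or had an unadjusted p under 0.05 there (limma), with 0 dpa log2 differences from -0.08 to 0.06. The differences of MAP kinase kinase 9 and MAP kinase kinase kinase 13 between the groups therefore rest on 1 probe set each. Whether these 4 probe sets read another strand, end or copy of the transcript, or a different transcript, was not tested, since the sources used here give no probe positions.

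**Figure D4:**
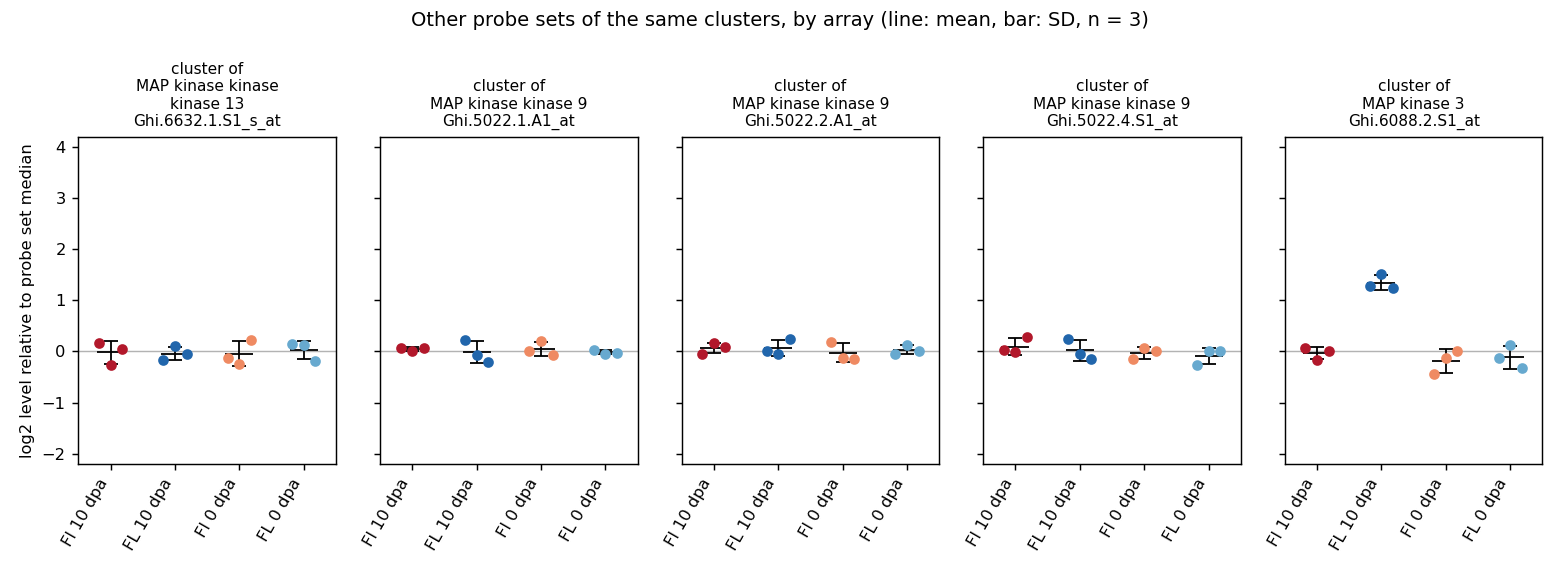
Relative level (log2, median of each probe set at 0) of the 5 other probe sets whose identifiers share a cluster number with a member, on each array, on the scale of the members' plot. Points are arrays, the long line is the group mean and the bar its SD (n = 3). Ghi.6088.2.S1_at is higher in *FL* at 10 dpa (mean 1.35), and the other 4 stay near 0 in all groups.

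The profile of MAP kinase 3 over the 4 groups was shared most closely by transcripts of other families. Likeness was measured as the root mean square difference over the 4 group means, each profile centred on its own mean, from Ghi.6088.1.S1_s_at, so that a smaller value is a closer profile. The nearest of all was a dirigent-like protein of disease resistance responses (AT1G58170.1) at 0.0937 on the log2 scale. It was followed by polyol/monosaccharide transporter 5 (AT3G18830.1), a sugar uptake carrier, at 0.119, NAC domain containing protein 74 (AT4G28530.1) at 0.127, the WRKY factor WRKY75 (AT5G13080.1), both transcription factors, at 0.141, and an unnamed probe set, Ghi.8381.1.S1_s_at, at 0.144. Their 10 dpa log2 differences ran from -3.09 for WRKY75 to -2.65 for NAC domain containing protein 74, beside -2.98 for MAP kinase 3. The second MAP kinase 3 probe set was at 0.3 with 23 probe sets nearer. The protein kinase at 0.898, MAP kinase kinase kinase 13 at 0.913 and MAP kinase kinase 9 at 0.964 had 322, 350 and 436 probe sets nearer. Between MAP kinase kinase kinase 13 and MAP kinase kinase 9 the difference was 0.333, beside 0.3 between the MAP kinase 3 probe sets. How many probe sets lay nearer to either gene was not counted. At 0 dpa their log2 differences between the lines had opposite signs, 0.56 and -0.24. All these distances use the 10 dpa arrays that chose the members.

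Genes of ethylene synthesis and response, WRKY factors and a zinc finger stand downstream of or beside MAP kinase cascades in *Arabidopsis*. They were taken from the study's lists on these same arrays, so their counts are not independent evidence of a direction. Of 18 such probe sets, 7 were higher and 0 were lower in *Fl* at 0 dpa (adjusted p of 0.01 or less, Benjamini-Hochberg in limma), where 4.95% of all transcripts were called higher and 5.25% lower. Leaving out those listed for their 0 dpa difference, 1 of 12 was higher. At 10 dpa 13 of the 18 were at least 3-fold lower in *Fl*, against 1.04% of all transcripts called lower, but all 13 had been listed by the study for that contrast and nothing is read from this count.

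In the ethylene group, 1 of 5 probe sets was called at 0 dpa. This was ACC synthase 6 (AT4G11280.1), which makes the ethylene precursor and is a known substrate of MAP kinase 3 in *Arabidopsis*, 3.84-fold higher in *Fl* (log2 difference 1.94, adjusted p = 1.5e-08, Benjamini-Hochberg in limma). Its 10 dpa log2 difference was 0.44, unlike those of the kinases. Probe sets for the ethylene-forming enzyme (AT1G05010.1), which catalyses the last step, had log2 differences of -5.33 and -3.93 at 10 dpa and of -0.12 and -0.11 at 0 dpa on the 2 named by the rule. A further probe set for this enzyme, outside that rule, had -2.06 at 10 dpa and 0.01 at 0 dpa. None of these was called at 0 dpa.

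Of 7 ethylene response factor probe sets, 4 were called higher in *Fl* at 0 dpa, 3 of them listed by the study for that difference. Ethylene responsive element binding factor 5 (AT5G47230.1), a transcription factor of stress responses, had log2 differences of 2.22 at 0 dpa and -0.39 at 10 dpa on Ghi.8749.1.S1_at. Factor 4 (AT3G15210.1), a repressor of the family, had 1.90 at 0 dpa and 0.07 at 10 dpa. Factor 1 (AT4G17500.1), an activator, was higher at 0 dpa by 1.74 and 4.97-fold lower at 10 dpa, the same pair of signs as MAP kinase kinase kinase 13 at a larger 0 dpa size. In the WRKY group, some members of which act in defence and senescence, 1 of 4 was called at 0 dpa. This was WRKY40 (AT1G80840.1), with a log2 difference of 2.30. WRKY75, the near neighbour of MAP kinase 3 in profile, had -0.10 at 0 dpa, and WRKY23 (AT2G47260.1) had -0.15.

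The salt tolerance zinc finger (AT1G27730.1), a stress-responsive repressor, was read by 2 probe sets, with log2 differences of 1.48 and -0.24 at 0 dpa and of -1.93 and -2.77 at 10 dpa, and the first was called higher at 0 dpa. Of the 3 other kinases on the lists, the leucine-rich repeat transmembrane protein kinase AT5G10290.1 was lower in *Fl* at 0 dpa (log2 difference -1.07, adjusted p = 6.0e-06, Benjamini-Hochberg in limma) and was at -1.67 at 10 dpa. The receptor-like kinase AT5G01890.1 was at 0.05 at 0 dpa and 7.67-fold higher in *Fl* at 10 dpa, opposite to the members. The protein kinase C-like zinc finger protein (AT4G31240.2) was at -0.09 at 0 dpa and -2.26 at 10 dpa, beside -0.24 and -2.51 for MAP kinase kinase 9.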

How the data were processed

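Affymetrix cotton GeneChips were hybridized with biotinylated cRNA from ovules, and the authors made log2 values from the signals with the RMA method of GeneSpring GX 11.5. The deposited table holds these log2 values for 21889 probe sets, of which 98 are controls, and in it the median of each probe set across the 12 arrays is 0. The methods do not describe this step. It leaves differences between groups as they were and removes absolute levels. How the probe sets were filtered before deposit is not given in the sources used here. The number of arrays, 3 per group, limits the precision.

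The 12 arrays were fitted in limma 3.58.1 (R 4.3.3) with a mean for each line and stage, without the control probe sets, and p-values were adjusted over 21791 transcripts by Benjamini-Hochberg. The calling thresholds were those of the methods, an adjusted p up to 0.01 and, where stated, a 3-fold difference. The test was checked on simulated data. The members, the pathway lists, the fibre markers and the rule for named genes were chosen with earlier results of these data known. Named genes were the members, probe sets of their cluster numbers, the 5 nearest profiles to MAP kinase 3 and up to 3 probe sets per list with the widest 0 dpa difference. No sequence or genome position is printed, because the tables used here do not pair these probe sets with either. Alternatives were quantile normalization repeated on the deposited, centred values, centring on array medians or on hybridization controls, the unpaired test of the methods, fits of the 6 arrays compared, a replicate block, control probe sets kept and each array left out in turn. The repeated quantile normalization is not a new RMA run from the probe signals.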

Additional observations from a re-analysis of the deposited data

Results flagged for a closer look

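MAP kinase kinase kinase 13 (Ghi.6632.1.A1_s_at) had all 3 *Fl* arrays below all 3 *FL* arrays at 10 dpa, with a log2 difference of -2.97, and all 3 above them at 0 dpa, with 0.56. Of all transcripts, 19.2% were lower in *Fl* without overlap at 10 dpa and 16% were higher without overlap at 0 dpa. The 0 dpa difference was not called at the threshold of 0.01 (adjusted p = 0.049, Benjamini-Hochberg in limma). The difference between the stages was not tested, because the 10 dpa contrast chose the transcript.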

How the results depend on the processing

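Repeating quantile normalization on the centred values moved the median difference over the members at 10 dpa to -1.76 and the median stage difference in *FL* to 2.39. It put the protein kinase at 0.00 at 0 dpa and -0.59 at 10 dpa. Centring on the hybridization controls moved the median of all transcripts to 0.64 at 0 dpa, 0.20 at 10 dpa, -0.19 for the stage in *Fl* and 0.25 for the stage in *FL*. Under it 4 members and 19323 of all transcripts were called at 0 dpa, against 0 members and 2222 as reported. The members' medians became 0.59 at 0 dpa, 0.48 for the stage in *Fl* and 3.92 for the stage in *FL*. Single 0 dpa differences turned to 0.59 and 0.62 for MAP kinase 3 (Ghi.6088.2.A1_s_at and Ghi.6088.1.S1_s_at), 0.41 for MAP kinase kinase 9 and 0.56 for the protein kinase, and MAP kinase kinase kinase 13 stood at 1.21. The cause was not tested. Fits of the 6 arrays compared called 1267 of all transcripts at 0 dpa and the unpaired test 333, with 0 members in both.

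Leaving out each array in turn kept 0 members called at 0 dpa and 5 of 5 at least 3-fold lower at 10 dpa. The members' median ran from -3.04 to -2.76 at 10 dpa (-2.76 without *Fl* replicate 3), from -0.16 to 0.03 at 0 dpa, from 0.52 to 0.77 for the stage in *Fl* and from 3.46 to 3.70 for the stage in *FL*. Signs at 0 dpa turned for MAP kinase 3 (Ghi.6088.1.S1_s_at -0.18 to 0.10, with 0.06 and 0.01 in between, Ghi.6088.2.A1_s_at -0.21 to 0.03, with 0.00 in between) and the protein kinase (-0.32 to 0.03, with 0.01 in between), but not for MAP kinase kinase 9 (-0.44 to -0.12) or MAP kinase kinase kinase 13 (0.47 to 0.70). The count of all transcripts called ran from 1209 to 2133. The adjusted p of MAP kinase kinase kinase 13 ranged from 1.1e-06 under control centring to 0.16 over the alternatives.

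The replicate numbers were not used as pairs. Deviations of same-numbered *Fl* and *FL* arrays correlated at 0.0154, -0.00118 and 0.0794 at 10 dpa and at -0.00803, -0.0496 and -0.203 at 0 dpa across probe sets. Arrays with unlike numbers correlated at -0.115 to 0.167 at 0 dpa. These values cannot show whether the samples were collected or processed in pairs. With the replicate number as a block, 0 members were called at 0 dpa and MAP kinase kinase kinase 13 had an adjusted p of 0.04 (limma).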
